A study of Homo sapiens with 6 samples.

Results

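The order of the antibodies was compared at regions of the NCI-H661 genome recovered by sequential chromatin immunoprecipitation (reChIP). In a reChIP, chromatin bound by a first antibody is released and precipitated again with a second, so that what is recovered comes from chromatin that carries both targets. NCI-H661 is a non-small cell lung cancer line, derived from a large cell carcinoma, and the cells were parental and untreated. The K4-K119 libraries were made with an antibody to H3K4me3 followed by one to H2AK119ub, the K119-K4 libraries with the same antibodies in reverse, and the IgG-IgG libraries with rabbit IgG in both steps, each from 1000000 cross-linked cells and with 2 replicates per group. The order comparison used the 4 libraries that target both marks, of 6 in the series, and the IgG-IgG libraries gave the background. No label says whether replicates came from separate cultures, and they all came from 1 cell line, so their spread may be technical.

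Peaks of at least 10 reads in any of the 4 libraries were merged into 18943 regions, and 6477 regions had a listed peak in all 4. These 6477 regions were compared between orders. A region's value in a library was the number of reads in all listed peaks that overlap it, and scaled reads are that number divided by the library's sum over the 6477 regions and multiplied by the mean of the 4 sums. A peak list holds only positions that passed the authors' peak caller, so a region without a listed peak has an unknown count and not a count of 0. The log2 differences below are of K4-K119 over K119-K4, so positive values are higher in K4-K119.

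H3K4me3, trimethylation of lysine 4 of histone H3, marks the starts of active and poised genes and is laid down by SET1 and MLL methyltransferase complexes. H2AK119ub, a single ubiquitin on the tail of histone H2A, is laid down by Polycomb repressive complex 1 (PRC1), whose variant forms reach unmethylated CpG islands through the CXXC protein KDM2B. The pair of marks meets at CpG-rich promoters, and promoters of developmental regulators are the textbook example.

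The 300 bases around the start are given for 4 genes from either end of the comparison. They are examples and do not show the range of promoters there, as some named promoters had no window inside their region. ANG and BCL11A lay in regions with more K4-K119 reads, and HAPSTR1 and DYRK1A in regions with more K119-K4 reads. All are among the promoter regions named below, and the windows are from RefSeq (GRCh38.p14). Each window runs 5′ to 3′ on the gene's strand from 250 bases before to 50 after the start, with CG dinucleotides in capitals.
ANG (chr14:20683927-20684226, plus strand): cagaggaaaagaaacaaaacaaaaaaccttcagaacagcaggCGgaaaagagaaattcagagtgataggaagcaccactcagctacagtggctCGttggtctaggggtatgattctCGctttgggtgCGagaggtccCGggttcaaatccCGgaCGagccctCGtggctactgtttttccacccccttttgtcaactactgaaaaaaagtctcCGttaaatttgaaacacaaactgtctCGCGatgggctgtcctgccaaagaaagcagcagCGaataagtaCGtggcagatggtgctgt
BCL11A (chr2:60553605-60553904, minus strand): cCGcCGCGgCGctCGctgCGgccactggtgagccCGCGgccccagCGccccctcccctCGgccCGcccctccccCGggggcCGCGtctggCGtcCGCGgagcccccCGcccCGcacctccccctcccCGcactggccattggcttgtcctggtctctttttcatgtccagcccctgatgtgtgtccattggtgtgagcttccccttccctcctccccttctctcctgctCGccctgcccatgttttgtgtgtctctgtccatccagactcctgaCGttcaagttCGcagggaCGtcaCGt
HAPSTR1 (chr16:9091394-9091693, plus strand): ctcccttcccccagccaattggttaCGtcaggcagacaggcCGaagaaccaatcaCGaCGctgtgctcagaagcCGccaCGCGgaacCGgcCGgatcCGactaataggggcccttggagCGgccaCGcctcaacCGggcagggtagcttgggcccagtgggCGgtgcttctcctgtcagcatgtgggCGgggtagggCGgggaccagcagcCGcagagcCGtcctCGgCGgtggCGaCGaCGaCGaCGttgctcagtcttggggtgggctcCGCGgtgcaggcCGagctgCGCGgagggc
DYRK1A (chr21:37367307-37367606, plus strand): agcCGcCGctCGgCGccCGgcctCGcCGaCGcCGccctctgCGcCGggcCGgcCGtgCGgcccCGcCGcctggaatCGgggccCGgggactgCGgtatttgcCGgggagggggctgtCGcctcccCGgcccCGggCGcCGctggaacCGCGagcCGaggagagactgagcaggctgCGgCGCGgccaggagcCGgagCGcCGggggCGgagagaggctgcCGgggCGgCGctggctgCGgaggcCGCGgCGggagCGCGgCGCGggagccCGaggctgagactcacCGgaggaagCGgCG
The windows hold 13 CG dinucleotides at ANG, 25 at BCL11A, 30 at HAPSTR1 and 50 at DYRK1A. The median over the 35116 promoter windows of the table was 14, and CG was found at least once in 96.0% of them. Of the 6640 protein-coding genes with a compared region at their promoter, 5213 had a window, and their median was 30. Genes with a region higher in both K4-K119 libraries had a median of 28 CG over 1671 windows, and those with a region higher in both K119-K4 libraries a median of 34 over 1214 windows. The letters describe the sequence at these starts and carry no claim on a bound factor.

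The 4 libraries held 1092121 and 559776 reads (K4-K119) and 1063368 and 430536 reads (K119-K4) in the 6477 regions, with a median of 136, 69, 118 and 47 reads per region. The IgG-IgG libraries listed a peak at 187 and 218 of these regions, with 455 and 468 reads in all. The libraries listed peaks of different extent. The K4-K119 peaks covered 13.9 and 11.7 Mb of the compared regions and the K119-K4 peaks 10.8 and 8.34 Mb. At the median region this was 94.1% and 81.5% of its length for K4-K119 and 73.9% and 58.1% for K119-K4. Reads per kb covered were 78.6 and 47.7 for K4-K119 and 98.5 and 51.6 for K119-K4. As an unlisted stretch adds no reads, a region's value depends on the length its peaks cover, which is given below for some of the named regions only. Over regions, the SD of the log2 ratio was 0.66 between the K4-K119 replicates and 1.02 between the K119-K4 replicates, and it ran from 0.84 to 1.29 between libraries of different order.

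Without a replicate block, no single region passed the test between orders. In edgeR's quasi-likelihood test with Benjamini-Hochberg adjustment, 0 of 6477 regions (0%) were higher in K4-K119 and 0 (0%) higher in K119-K4 at an adjusted p below 0.05, and the smallest adjusted p was 0.092. At an unadjusted p below 0.05, 643 regions (9.93%) were higher in K4-K119 and 463 (7.15%) higher in K119-K4. DESeq2 called 24 and 136 regions, with 4646 adjusted p-values not given, and limma on reads per kb covered called 1 and 7. With the replicate number as a block, edgeR called 173 regions higher in K4-K119 and 175 higher in K119-K4, and 168 and 494 with block and offsets by GC content. Scaled by the sum over all regions and without a block it called 100 and 16. The study's methods mention batches for contrasts with doxycycline, but no label ties a replicate number to one here. The count of calls also rested on single libraries. Without K119-K4 replicate 1, edgeR called 634 and 164 regions, and without K119-K4 replicate 2 it called 71 and 2. On simulated counts of the same 6477 regions with the same number of libraries, 25 of 100 regions changed 2-fold were called, and 99 of 100 changed 4-fold. Among the unchanged regions 7 were called. The simulation gave all regions the same dispersion (0.054), no replicate effect and no partly listed peaks. Its rates therefore do not show what could be called in the real libraries.

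Regions were therefore described by whether they leaned to one order, that is, whether both scaled values of an order lay above both of the other. Of the 6477 regions, 2186 (33.8%) leaned to K4-K119 and 1400 (21.6%) to K119-K4. The balance between the directions moved with the scale. With TMM factors 1769 and 1759 regions leaned, with offsets by GC content 1567 and 2203, with the sum over all regions as scale 1151 and 1896, and on reads per kb covered 895 and 2352. These scales moved the median log2 difference of all regions by -0.10, -0.22, -0.28 and -0.38. Among the 3979 regions of which each library covered at least 50%, 879 (22.1%) leaned to K4-K119 and 1181 (29.7%) to K119-K4. Which order took the larger share of regions was thus not fixed by these data, and the differences below are given relative to all regions, whose median log2 difference was 0.14.

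**Figure D1:**
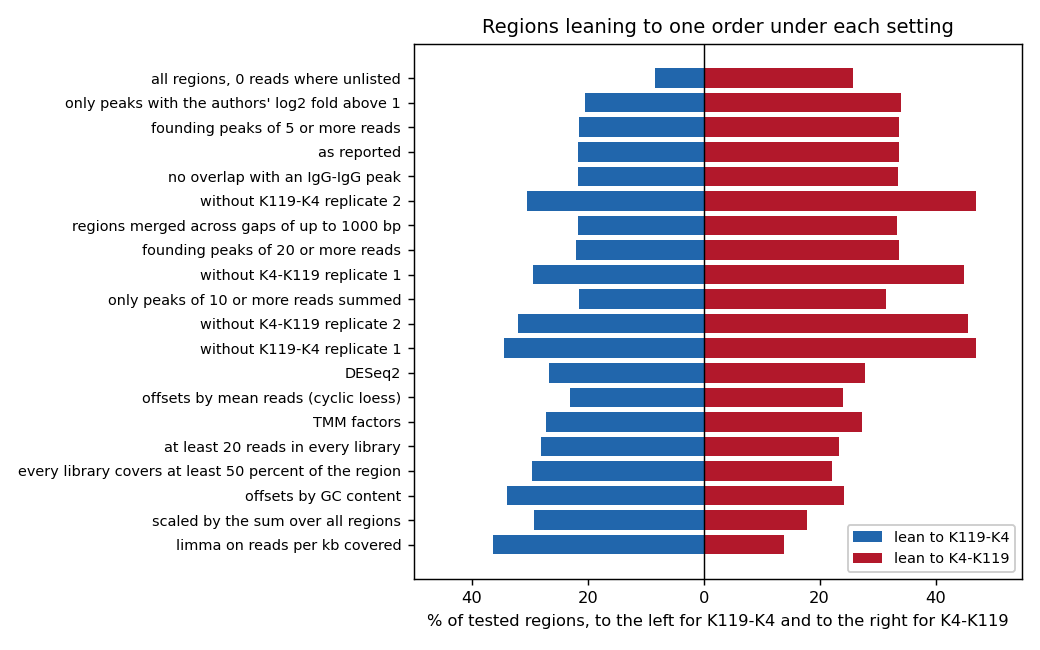
Percentage of compared regions that leaned to K119-K4 (blue, to the left) or to K4-K119 (red, to the right) under each way of processing. As reported, 21.6% and 33.8% leaned, and the balance turns to K119-K4 at the bottom, where reads were taken per kb covered.

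Regions that leaned to K4-K119 differed from those that leaned to K119-K4 in reads, CpG content and coverage. The former had a median of 271 reads over the 4 libraries and the latter 652. Their medians of CpG dinucleotides per 100 bp were 6.21 and 7.36, beside 6.61 over all regions. Every library covered at least 50% of the length in 40.2% of the former and 84.4% of the latter. Across the 6477 regions, the log2 difference and the reads over the 4 libraries had Pearson's r = -0.36, and within the 3979 regions at least 50% covered r = -0.31. These correlations are descriptions across regions of the same 4 libraries, and regions are not independent replicates.

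**Figure D2:**
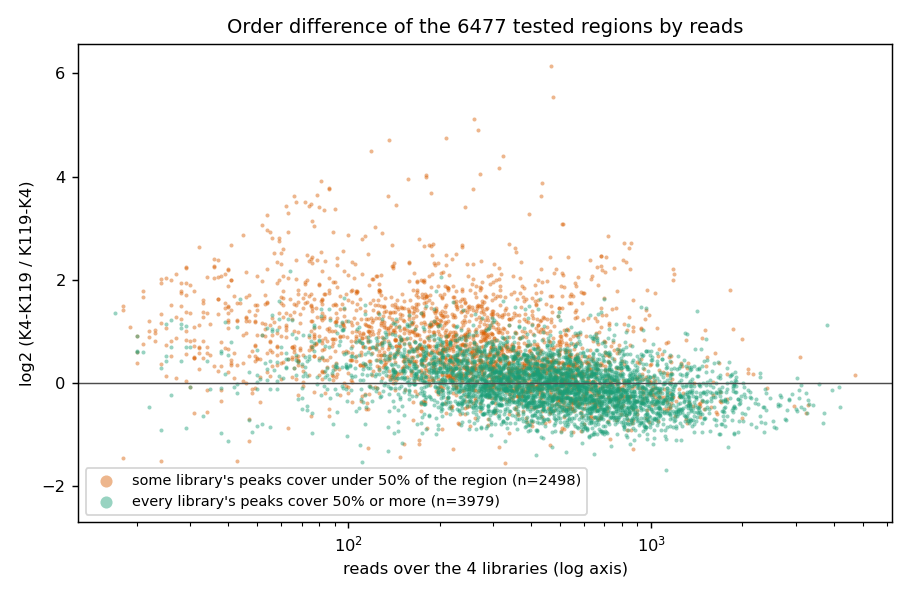
Log2 difference between orders (vertical axis) against the reads over the 4 libraries (horizontal log axis) for the 6477 compared regions, coloured by whether every library's peaks cover at least 50% of the region. The differences above about 2 lie almost all among the 2498 regions that some library covers in part, and the regions with the most reads lie mostly below 0.

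By position, regions outside protein-coding promoters leaned to K4-K119 more often than promoters. Regions within 1500 bp of a protein-coding transcript start were called promoters (5981 of the 6477). Promoter regions had a median log2 difference of 0.12, with 1964 (32.8%) leaning to K4-K119 and 1354 (22.6%) to K119-K4. The 285 regions at starts of other genes, such as long noncoding RNAs and microRNAs, had a median of 0.35, with 114 and 39 leaning. The 56 intronic regions had a median of 0.72 and the 113 intergenic regions one of 0.76, and the intergenic regions split 57 to 2. The 42 exonic regions outside promoters had the highest median, 1.04, with 28 leaning to K4-K119 and 0 to K119-K4. The median of promoters minus that of the other regions was -0.43, with -0.42 from the replicate 1 libraries alone and -0.37 from the replicate 2 libraries alone. It was -0.11 with offsets by mean reads and -0.17 with at least 20 reads in every library. Reads moved with position, with a median over the 4 libraries of 395 at promoters, 113 in intergenic and 81 in intronic regions, and their part in the difference was not tested beyond these settings. In regions at least 50% covered, the exonic (14) and intergenic (40) medians were 0.32 and 0.45, beside -0.05 at promoters. Exonic regions split 7 to 0 and intergenic regions 20 to 0 there. The intronic regions (14) and those at starts of other genes (146) had lower medians, 0.15 and 0.09. Their directions were nearly even, with 4 against 4 and 35 against 32 leaning.

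By CpG content, the log2 difference went down from CpG-poor to CpG-rich regions. The 13 regions with under 2 CpG per 100 bp had a median of 0.88. The 275 regions with 2 to under 4 had a median of 0.59, and 163 of them leaned to K4-K119 and 9 to K119-K4. With 4 to under 6 CpG the median was 0.27 (1956 regions, 800 against 223 leaning). With 6 or more it was 0.04, and the directions were nearly even, with 1217 against 1167 of 4233 regions. The order of the 3 larger classes was the same in regions at least 50% covered, at 0.36, 0.08 and -0.11, and at protein-coding promoters alone, at 0.58, 0.25 and 0.01. It was also the same from either replicate number taken alone, while the class with under 2 CpG differed between them (1.13 and 0.21). Coverage moved with CpG content too. K119-K4 peaks covered a median of 55.6% and 50.0% of the regions with 2 to under 4 CpG and 77.8% and 61.1% of those with 6 or more, and the part of coverage in the CpG difference was not tested beyond the 50% limit.

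By width, the narrowest regions had the highest median. Regions under 1000 bp had a median log2 difference of 0.49 (321 regions), those of 1000 to under 2000 bp 0.21 (2255), those of 2000 to under 4000 bp 0.08 (3456) and those of 4000 bp or more 0.13 (445). In regions at least 50% covered, the medians were 0.19, -0.001, -0.08 and -0.06 in the same order. As shares of all reads in compared regions, the classes were close in the 4 libraries. Promoters held 95.3% and 95.9% of the K4-K119 reads and 96.4% and 96.9% of the K119-K4 reads, so the orders did not overlap but differed by 1.02 percentage points. This was not particular to promoters. The orders also did not overlap for every other position class, most width classes, both CpG classes under 4 CpG and many chromosomes. Regions with 6 or more CpG held 70.3% and 67.6% against 73.2% and 70.1%, and here the orders overlapped. The exact two-sided permutation test gave p = 0.333 for the promoter share, the smallest value that 2 against 2 libraries allow, and none of the 37 shares tested went below it (smallest Benjamini-Hochberg adjusted p = 0.536).

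Most promoter regions named for K4-K119 were covered by K119-K4 peaks over a small part of their length. As edgeR without a replicate block called no region, those named, up to 10 per direction, had the smallest unadjusted p among the leaning regions with at least 200 reads (1318 promoter regions leaning to K4-K119 and 1308 to K119-K4). With the replicate block, all 9 promoter regions reported here for K4-K119 (adjusted p 0.0152 to 0.0270, edgeR) and all 10 for K119-K4 (0.0237 to 0.0347) were called. Over all 6477 regions that fit called 173 and 175. The named regions were chosen by p from the same 4 libraries, so these calls are no separate support. GDF6, a BMP-family ligand gene that patterns joints and the eye, had 132 and 98.3 scaled reads in K4-K119, against 2.96 and 3.65 in K119-K4. Its region spans chr8:96158601-96162000, of which K4-K119 peaks cover 3400 and 2800 bp and K119-K4 peaks 300 and 200 bp. The log2 difference was 5.12 ± 0.45 (SE, n = 2 libraries per order; edgeR adjusted p = 0.092). Only 6 K119-K4 reads stand behind it. A ratio was also formed from unscaled reads summed over the libraries of each order, divided by the ratio of the orders' summed library sums. It was 38.1, with an exact 95% counting interval of 17.3 to 105. The interval covers counting error only, in a region chosen by p from these libraries, and is no separate support. With 4 and 2 reads in K119-K4, the region met the limit of 10 reads per peak only through K4-K119. The same holds for HELT and KLHL28, among others. Per kb covered, the log2 difference was 1.46.

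HELT, a bHLH factor of GABAergic neurons, had the largest difference. Its region (chr4:185016801-185022000) held 259 and 143 scaled reads in K4-K119, against 1.48 and 5.48 in K119-K4, a log2 difference of 6.15 ± 0.62 (SE; edgeR adjusted p = 0.092). The ratio of summed reads, formed as for GDF6 and with the same limits, was 83.6 (exact 95% interval 35.6 to 259) from 5 K119-K4 reads. Per kb covered, the log2 difference was 1.33. At both of these developmental genes the K119-K4 peaks covered at most 300 bp.

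ANG and RNASE4, which encode secreted ribonucleases and share a promoter, held 121 and 198 scaled reads in K4-K119, against 7.40 and 7.31 in K119-K4 at chr14:20680401-20685500. The log2 difference was 4.40 ± 0.42 (SE; edgeR adjusted p = 0.092). The region is CpG-poor, with 3.82 CpG per 100 bp, and per kb covered the log2 difference was 0.21. BCL11A, a zinc finger repressor of fetal globin genes, differed with more reads on either side. Its region (chr2:60548801-60556500) held 366 and 288 scaled reads in K4-K119, against 56.9 and 40.2 in K119-K4, a log2 difference of 2.71 ± 0.26 (SE; edgeR adjusted p = 0.092). Per kb covered it was 0.47. Each IgG-IgG library listed 2 reads there.

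Of the promoter regions named for K4-K119, C11orf96 is the one where coverage differed least. At chr11:43941901-43945100 the peaks covered 3200 and 2700 bp in K4-K119 and 2600 and 2400 bp in K119-K4. It held 273 and 230 scaled reads in K4-K119, against 81.4 and 82.2 in K119-K4, with a log2 difference of 1.62 ± 0.20 (SE; edgeR adjusted p = 0.178). Per kb covered the log2 difference was 1.38. Of the others, KLHL28 and TOGARAM1 share a CpG-poor region with 2.50 CpG per 100 bp and 203 against 7 reads, and the synaptic gene CSMD3, COQ8B with ITPKC, and the neural corepressor SKOR1 had log2 differences of 3.62, 1.44 and 2.34. Per kb covered, KLHL28 was at 1.30, CSMD3 at 0.029, COQ8B at 0.36 and SKOR1 at 0.61.

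The promoters named for K119-K4 looked different: peaks of every library covered at least 60.0% of all 10, and most differed by about 2-fold. ANKRD11, a chromatin regulator gene mutated in KBG syndrome, had the largest difference. Its region (chr16:89489001-89490700) held 143 and 142 scaled reads in K4-K119, against 388 and 535 in K119-K4, with a log2 difference of -1.69 ± 0.22 (SE; edgeR adjusted p = 0.186). HDAC4, a class IIa histone deacetylase, held 167 and 149 against 351 and 367 scaled reads, a log2 difference of -1.18. CHD7, the chromatin remodeller mutated in CHARGE syndrome, held 333 and 306 against 621 and 638, a log2 difference of -0.98.

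HAPSTR1, a stress response regulator, held 143 and 146 scaled reads in K4-K119, against 296 and 321 in K119-K4 (log2 difference -1.09). DYRK1A, a dosage-sensitive kinase of chromosome 21, held 136 and 138 against 275 and 347 (-1.18). MEX3D, an RNA-binding ubiquitin ligase, held 295 and 274 against 568 and 559 (-0.99). The remaining 4 were THAP12 with GVQW3 (-1.39), the adhesion receptor gene ADGRL1 (-0.98), the kinesin gene KIF1B (-1.07) and the phosphatase gene PPP2CB (-1.16). The edgeR adjusted p ran from 0.186 to 0.219 over the 10. All 10 regions held at least 7.80 CpG per 100 bp and went up to 12.55 at CHD7, while those named for K4-K119 ran from 2.50 to 8.84, which describes the named regions and was not tested.

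**Figure D3:**
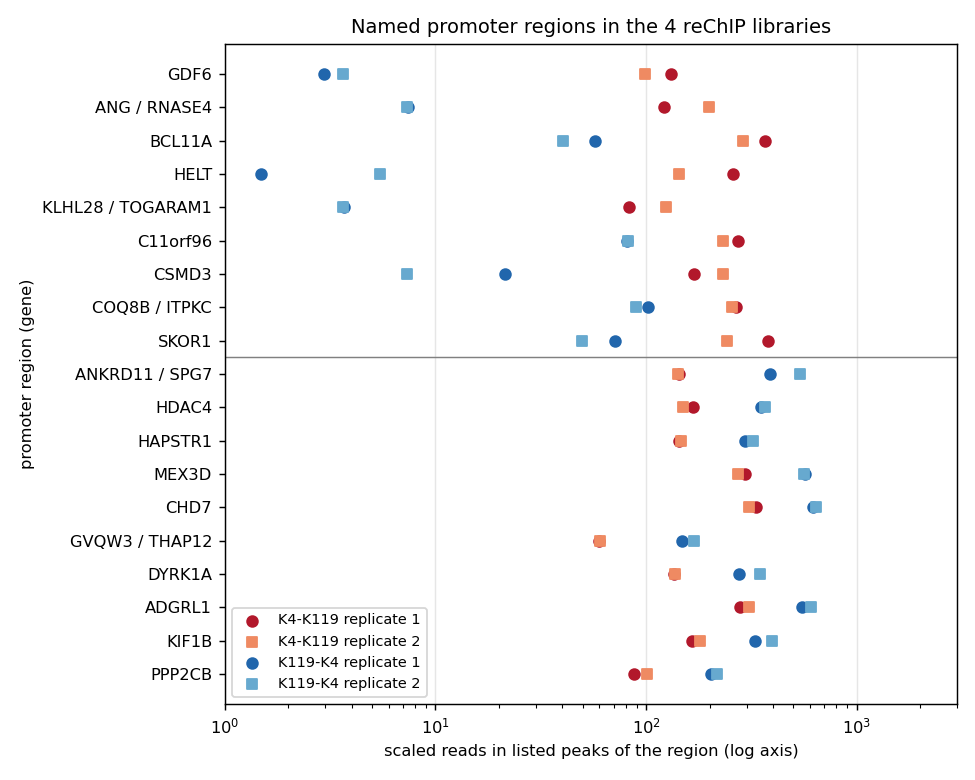
Scaled reads in listed peaks (horizontal log axis) of 9 promoter regions named for K4-K119 (above the line) and the 10 named for K119-K4 (below it), with 1 point per library. In the upper block K119-K4 values go down to 1.48 scaled reads at HELT, whereas in the lower block no library lies below 59.8 scaled reads and most orders differ by about 2-fold.

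Outside protein-coding promoters, up to 5 regions per direction were named by the same rule. With the replicate block edgeR called 5 of 5 for K4-K119 and 2 of 5 for K119-K4, again among regions chosen by p from the same libraries. The region with the smallest p was the MIR129-2 locus, which encodes a brain microRNA, at chr11:43574901-43583100. It held 251 and 167 scaled reads in K4-K119, against 2.96 and 7.31 in K119-K4, a log2 difference of 5.55 ± 0.48 (SE; edgeR adjusted p = 0.092), with K119-K4 peaks over 300 and 200 of its 8200 bp and a log2 difference of 0.88 per kb covered. The neuronal microRNA gene MIR124-1 on chromosome 8 had 243 reads against 15. Its log2 difference was 3.77 ± 0.69 (SE; edgeR adjusted p = 0.219). The ratio, formed as for GDF6, was 14.7 (exact 95% interval 8.71 to 26.6, for counting error only). TCHH, a hair follicle protein gene, had an exonic region with 341 and 284 scaled reads against 88.8 and 21.9. A start of an uncharacterized transcript within IGSF21 and one at the pseudogene IRX1P1 had log2 differences of 2.37 and 1.83. In the other direction, MIR17HG, the host of the oncogenic miR-17-92 cluster, held 113 and 87.1 scaled reads in K4-K119, against 191 and 195 in K119-K4 (log2 difference -0.94 ± 0.22, SE; edgeR adjusted p = 0.219). The other 4 were noncoding loci with log2 differences from -0.86 to -0.62: LINC00472, ENSG00000290928, MIR3180-4 with PKD1P6, and ZNF767P. MIR3180-4 and PKD1P6 belong to families with near-identical copies, so their reads are uncertain.

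Of 20007 protein-coding gene symbols, 14177 had a region at their promoter and 6640 a compared one. These 6640 genes leaned to K4-K119 at 2171 (32.7%) and to K119-K4 at 1512 (22.8%), with a median log2 difference of 0.11, and at -0.05 over the 4179 that were at least 50% covered. Lists of genes are described beside these values.

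The Polycomb and Trithorax genes leaned to K119-K4 more often than to K4-K119. Of 25 PRC1 subunit genes 18 were compared, of which 3 leaned to K4-K119 and 8 to K119-K4, with a median log2 difference of -0.14. AUTS2, a subunit of a variant PRC1, held 233 and 261 scaled reads in K4-K119, against 344 and 393 in K119-K4. KDM2B went the other way, with 212 and 170 against 135 and 67.6.

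Of 13 PRC2 subunit genes 8 were compared, with 1 leaning to K4-K119, 4 to K119-K4 and a median of -0.31. AEBP2 held 112 and 98.3 scaled reads in K4-K119, against 201 and 234 in K119-K4, a log2 difference of -1.04 ± 0.21 (SE; edgeR adjusted p = 0.219). The methyltransferase EZH2 held 211 and 176 against 294 and 349 (-0.72). SUZ12 leaned the same way, with few reads (43.9 and 23.9 against 45.9 and 63.9).

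Of 20 H3K4 methyltransferase complex genes 14 were compared, with 3 and 8 leaning and a median of -0.30, among them PAXIP1 (-0.72) and WDR5 (-0.70) on the K119-K4 side and HCFC2 (1.38) on the other. The H3K4 demethylase and CXXC reader list split 3 to 5 of 12 with a median of -0.27, and KDM5B held 261 and 256 scaled reads against 386 and 435. Of the H2AK119 deubiquitinase genes 6 of 15 were compared, 0 leaned to K4-K119 and 2 to K119-K4 (FOXK1 and FOXK2, subunits of the BAP1 complex), and the third by p, USP3, had a log2 difference of -0.36. The median of this small list was -0.36, but 0.08 from the replicate 1 libraries and -0.59 from the replicate 2 libraries. Of the compared genes, 94.4% of the PRC1 list and 100% of the PRC2 list were at least 50% covered, beside 62.9% of all genes. Median reads over the 4 libraries were 599.5 (PRC1), 425.5 (PRC2), 680.5 (methyltransferases), 937 (demethylases) and 530.5 (deubiquitinases), beside 405 for all genes. In the same order, median CpG per 100 bp was 7.40, 8.8, 6.50, 6.82 and 6.31, beside 6.53. The part of reads and CpG content in these lists was not tested. Over members at least 50% covered, the medians were -0.17 for PRC1 (17 genes), -0.31 for PRC2 (8) and -0.33 for the methyltransferase complexes (9), beside -0.05 for all such genes. Under every alternative run, the medians of the PRC1, PRC2, methyltransferase and demethylase lists lay below the median of all genes. Of the members named by p, AEBP2, RCOR1 and KDM5B were called with the replicate block, a fit to the same counts by which they were chosen.

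Developmental transcription factor genes lay at the other end. Of 80 on the list 41 were compared, 23 leaned to K4-K119 and 5 to K119-K4, and the median log2 difference was 0.67, with 0.57 and 0.62 from replicate numbers 1 and 2 alone. PAX6, the eye field regulator, held 450 and 504 against 252 and 272, a log2 difference of 0.87 ± 0.17 (SE; edgeR adjusted p = 0.219). GATA3, a factor of T cells and luminal epithelium, held 216 and 164 against 2.22 and 31.1. The log2 difference was 3.88 ± 0.90 (SE; edgeR adjusted p = 0.219). The ratio of summed reads, formed as for GDF6, was 18.9 (exact 95% interval 12.1 to 31.2). That interval covers counting error only and leaves out the spread between the 2 libraries of an order. At GATA3 the K119-K4 peaks covered 200 and 1300 bp of a 5200 bp region.

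The K119-K4 peaks covered less of these regions than the K4-K119 peaks. At PAX6 they covered 6200 and 2300 bp of a 10300 bp region that K4-K119 peaks covered over 10100 and 9900 bp. Per kb covered, PAX6 turned to K119-K4, at -0.54. Of the 41 genes 41.5% were at least 50% covered in every library, and these 17 had a median of -0.09, beside -0.05 for all such genes. The part of coverage in the difference of the developmental list was not tested beyond this limit, which was chosen after the data were seen.

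Signaling lists fell between. Of 36 compared Wnt genes 14 leaned to K4-K119 and 7 to K119-K4 (median 0.14). They held both extremes: WNT7B, a secreted ligand, had 386 and 235 scaled reads against 127 and 93.2 (log2 difference 1.48 ± 0.31, SE; edgeR adjusted p = 0.219), and AXIN1, a scaffold of the complex that degrades beta-catenin, had 86.4 and 96.9 against 189 and 179 (-1.01 ± 0.21, SE; edgeR adjusted p = 0.219). WNT5B, another ligand, had -0.59. Of 30 axon guidance genes 13 and 7 leaned (median 0.14), with the semaphorin coreceptor NRP2 at 1.60, SEMA5B at 1.42 and SEMA4C at -0.73. Notch and Hedgehog genes split 8 to 8 of 24, led by the coactivator MAML3 (135 and 101 scaled reads against 3.70 and 12.8), with GLI1 at 0.76 and HES7 at 0.58. At MAML3 the K119-K4 peaks covered 500 and 400 bp of a 3900 bp region. TGF-beta and BMP genes split 6 to 10 of 30 (median -0.09), with the antagonist FST at 1.02 and ID4 and SKI at -0.86 and -0.43.

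Housekeeping lists lay on both sides of all genes. Cell cycle genes split 9 to 6 of 34 (median 0.08), with CCNE2 at 0.64, TFDP1 at -0.90 and E2F3 at -0.36. Ribosomal protein genes split 5 to 7 of 33 (-0.09; RPL18 2.51 from 7 K119-K4 reads, RPL13 -0.64, RPL3 1.41). Splicing genes split 3 to 6 of 17 (-0.05), with HNRNPU, HNRNPM and SRSF2 at -1.01, -0.79 and -0.72. Proteasome and ubiquitin genes split 6 to 8 of 20 (-0.32), with PSMA7 at 441 and 466 scaled reads against 720 and 835 and with CUL1 and FBXW7 at -0.68 and -0.61. Respiratory chain genes split 7 to 3 of 14 (0.19; SDHA -0.59, COX8A 1.10, NDUFS7 1.08). The zinc finger genes of chromosome 19, a family of close paralogs, split 10 to 3 of 40 genes in 37 regions (0.29), led by ZNF429 at 1.43 and by ZNF569 and ZNF570, which share a region, at 2.32. In that shared region the K119-K4 peaks covered 900 and 100 of 3900 bp. With offsets by mean reads the list fell below all genes. Of the replication-dependent histone genes only H4C4 was compared (9 and 10 reads against 7 and 2), and of the clustered protocadherins none.

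Marker genes of lung epithelium, of immune and blood cells and of pluripotent and germline cells were mostly absent from the compared regions. Of the lung epithelium list 4 of 30 genes were compared and 0 leaned in either direction (SFTPC 0.40, NKX2-1 0.15, EPCAM 0.15). The SFTPC region is shared with BMP1 and the NKX2-1 region with SFTA3. Of the immune and blood list 3 of 37 were compared, TCF7 (-0.38), RUNX3 (-0.23) and HBA1 (0.30, from 14 and 10 reads), and 1 and 2 leaned. Of the pluripotency and germline list 4 of 26 were compared, among them LIN28B (1.49), TRIM71 (-0.05) and NANOS3 (-0.09), and 1 leaned to K4-K119. DPPA2 had no region, and DPPA4 had a region (chr3:109335501-109337500) listed only in K4-K119 replicate 1, with 44 reads. TFAP2C, an AP-2 factor, held 891 and 485 reads with H3K4me3 precipitated first and 991 and 491 with H2AK119ub first (log2 difference -0.30 ± 0.18, SE; edgeR adjusted p = 0.416), and CDK6 501 and 268 against 352 and 181 (0.33 ± 0.19, SE; edgeR adjusted p = 0.399).

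The regions not listed in all 4 libraries were dominated by the deepest list, K4-K119 replicate 1. It alone listed 5219 regions with a median of 25 reads. Both K4-K119 libraries but neither K119-K4 library listed 1038 regions, with medians of 33 and 9 reads, and 739 of these lay at protein-coding promoters. Both K119-K4 libraries but neither K4-K119 library listed 29, with medians of 4 and 10 reads, and 4 of these lay at protein-coding promoters (EN1, SV2B, PERCC1 and MNT, none above 12 reads). At 50 or more reads in both libraries the counts were 86 and 0. K4-K119 replicate 1 also listed the most peaks of 10 or more reads, 19235 against 6437 to 9878 in the other libraries, and the part of list depth in these counts was not tested.

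The strongest of the regions listed in K4-K119 only was VSTM2B, an immunoglobulin-domain gene on chromosome 19. Its region (chr19:29524001-29531200) held 1356 and 481 reads in the K4-K119 lists and no peak in either K119-K4 list. GDNF, a neurotrophic factor gene, held 568 and 114, and PDGFRA, a growth factor receptor gene, 501 and 158. FOXQ1, a forkhead factor, held 385 and 105, and an intergenic region of 3000 bp on chromosome 2, 6547 bp from the nearest protein-coding start, held 397 and 97. The 5 regions are thus well above the 10 reads of a founding peak in both K4-K119 libraries. In contrast, no region listed in K119-K4 only held more than 19 reads, and the 5 with the most lay 29107 to 1156778 bp from the nearest protein-coding start.

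With each gene taken at the region with the most reads at its promoter, 611 genes were listed by both K4-K119 libraries and neither K119-K4 library, and 1 the other way. The 611 are 4.31% of the 14177 genes with a region. Of the gene lists, this held for 8 of 46 histone genes (among them H2BC3 and H4C8) and 6 of 50 splicing genes (among them HNRNPC and SNRPD1). It also held for 4 of 45 proteasome and ubiquitin genes, 3 of 43 respiratory chain genes and 3 of 47 axon guidance genes. Further, it held for 7 of 125 chromosome 19 zinc finger genes, 2 of 57 Wnt genes and 2 of 74 developmental factors (FOXF1 and FOXQ1). MBD5, BOD1L1 and MAML2 were such genes too, as was 1 gene each of the cell cycle, ribosomal protein, protocadherin and lung epithelium lists. In none of the 21 lists was a gene listed by both K119-K4 libraries and neither K4-K119 library.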

How the data were processed

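Sequential ChIP-seq of NCI-H661 cells was analysed from 6 peak lists, 1 per library. Per the submitters' processing notes and the study's methods, reads were trimmed (Trim Galore 0.6.6), aligned to hg38 (BWA 0.7.13) and handled with SAMtools 1.9, Picard 2.6.0 and deepTools 3.5.0. The authors called peaks in each replicate with EPIC2 (100 bp bins, 1 gap, fragment size 147, FDR 0.05) against matched genomic input, and replicates were not pooled. Each deposited list gives ChIP and input read counts per peak. The deposited p-value, FDR, log2 fold over input and score columns come from the authors' EPIC2 run within 1 library, and only the log2 fold was used, for an alternative filter.

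Peaks with at least 10 reads in any of the 4 libraries were merged, and the reads of all overlapping peaks were summed per library. A low peak can reach beyond its region, and PCR duplicates are not separable, so intervals cover counting error only. Regions listed in all 4 libraries were tested with edgeR 4.0.16 (quasi-likelihood, Benjamini-Hochberg over all regions, R 4.3.3), with library sums as offsets and DESeq2 1.42.0 and limma 3.58.1 as alternatives. Positions are from GENCODE 44, and Python 3.11.15, pandas 2.3.3, scipy 1.17.1 and pysam 0.24.0 were used. The scripts were tested on simulated data. The main test had no replicate block. A block was an alternative, given beside the main result, since the study's methods mention batches for its doxycycline contrasts but no label says which libraries share one (log2 ratios of replicate 1 to 2 in each order, r = 0.232 over 6477 regions and 2 pairs).

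Named regions were to be the 10 promoter and 5 other regions per direction with the largest called differences, at least 200 reads and a lean in both replicates. As none was called without a block, the smallest unadjusted p-values filled these places. Up to 3 members per list by p, DPPA2, DPPA4, TFAP2C, CDK6 and up to 5 regions per order by reads were also named. Other genes listed in 1 order only were named after their values were seen. The comparison and gene lists were chosen with earlier results of these data known. The study's blacklist was not used here. Some regions and genes that the rule named are not reported here.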

Additional observations from a re-analysis of the deposited data

How the results depend on the processing

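Of the values for single regions, genes and lists under all alternatives, 1753 stayed within the replicate spread or on the same side of the threshold, 225 moved past it in the same direction, 223 moved and 33 reversed. All named regions reported here kept their direction under every alternative in which they were compared, but not their size or their lean. Of 22 alternatives, ADGRL1 was compared in all, BCL11A and SKOR1 in 19. GDF6, HELT, ANG, KLHL28, CSMD3 and the MIR129-2 locus were compared in 18. GDF6 to the MIR129-2 locus were absent where more coverage or more reads were asked of every library, so their direction was not checked there. Per kb covered, CSMD3 went from 3.62 to 0.029, ANG from 4.40 to 0.21 and BCL11A from 2.71 to 0.47, and ANG, CSMD3, the MIR129-2 locus and ENSG00000290928 no longer leaned. The shallowest library had a median of 47 reads per region, the files hold no reads outside listed peaks, and the part of depth was not tested.

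Calls at an adjusted p below 0.05 (edgeR unless another tool is named, K4-K119 then K119-K4) were 0 and 0 as reported, 100 and 16 when scaled by the sum over all regions, 24 and 136 with DESeq2, 1 and 7 with limma per kb covered, 1 and 0 with 0 reads where unlisted, 1 and 0 with at least 20 reads in every library, and 1 and 1 in regions at least 50% covered. Leaving out 1 library gave 0 to 634 and 0 to 164, the lone library of an order being assumed to vary like the other order. The cause was not tested.

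No label says that a replicate number marks a batch, although the study's methods mention batches for its doxycycline contrasts. Over 2 pairs, the log2 ratios of replicate 1 to replicate 2 in each order had r = 0.232 over regions. With a replicate block edgeR called 173 and 175, with block and offsets by mean reads 18 and 0, and with block and GC offsets 168 and 494. With the block alone, 21 of the 57 other named genes were called, beside 173 and 175 of all 6477 regions. Most of the 57 were chosen by p from the same libraries, and ZNF569 and ZNF570, both called, share a region.

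The share leaning to K4-K119 (33.8%) became 17.8% when scaled over all regions, 13.8% per kb covered and 22.1% in regions at least 50% covered, and without 1 library it ran from 44.9% to 47.0%. The share leaning to K119-K4 (21.6%) became 34.0% with GC offsets, 36.3% per kb covered and 8.45% with 0 reads where unlisted, and ran from 29.4% to 34.4% without 1 library, where fewer libraries have to line up.

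The CpG difference of medians (-0.56) was -0.75 with peaks over the fold filter only, -0.33 with offsets by mean reads, -0.39 with GC offsets, -0.26 per kb covered, -4.21 with 0 reads where unlisted, -0.32 and -0.40 with a replicate block and offsets by mean reads or GC, and -0.70 to -0.42 without 1 library. The promoter difference (-0.43) was -0.17 with only peaks of 10 or more reads, -0.49 with the fold filter, -0.11 with offsets by mean reads (-0.12 with block), -0.32 per kb covered, -3.74 with 0 reads where unlisted, -0.17 with at least 20 reads in every library, -0.23 in regions at least 50% covered and -0.62 to -0.21 without 1 library. Both kept their sign throughout.

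The developmental transcription factor difference (0.56) was 0.11 with only peaks of 10 or more reads, 0.68 with regions merged over 1000 bp, 0.29 with the fold filter, 0.69 with offsets by mean reads, 0.62 with GC offsets, 0.23 per kb covered, 0.78 with 0 reads where unlisted, 0.13 with at least 20 reads in every library, 0.65 without IgG-IgG overlaps, 0.65 with a replicate block (0.69 with either offset), 0.77 with 1 start per gene and 0.30 to 0.72 without 1 library. It reversed to -0.041 in regions at least 50% covered, an alternative chosen after seeing the data.

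The share of regions listed by both K119-K4 libraries only (0.153%) was 1.96% with founding peaks of 5 reads, 0% with 20 and 0.0158% with only peaks of 10 or more reads summed. The median log2 ratio of covered length (0.38) was 0.26 in regions at least 50% covered and 0.22 to 0.55 without 1 library.

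Single genes reversed as follows, most from values near 0. Per kb covered, PAX6 was -0.54, HES7 -0.31, FST -0.12, RPL3 -0.50, NKX2-1 -0.82 and EPCAM -0.38. Scaled over all regions, NKX2-1 was -0.13, EPCAM -0.14 and HBA1 -0.012. With GC offsets NKX2-1 was -0.045 (-0.026 with block) and EPCAM -0.0095. With offsets by mean reads TRIM71 was 0.21, NANOS3 0.064, RUNX3 0.0042, HBA1 -0.911 and TFAP2C 0.10, and with block as well 0.22, 0.13, 0.0013, -0.919 and 0.10, and H4C4 -0.19. With regions merged over 1000 bp TRIM71 was 0.0043. With the fold filter TRIM71 was 0.033 and NANOS3 0.0021, and with only peaks of 10 or more reads TRIM71 was 0.013. Without K119-K4 replicate 1 TRIM71 was 0.19, NANOS3 0.69 and NKX2-1 -0.11. Without K119-K4 replicate 2 USP3 was 0.13 and EPCAM -0.080, and without K4-K119 replicate 1 EPCAM was -0.10. Over all 4 such fits USP3 ran from -0.76 to 0.13, TRIM71 from -0.25 to 0.19, NANOS3 from -0.54 to 0.69, NKX2-1 from -0.11 to 0.47 and EPCAM from -0.10 to 0.50. The causes were not tested.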

Other observations

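Among the 86 regions listed with at least 50 reads in both K4-K119 libraries and in neither K119-K4 library, 75 lay at protein-coding promoters. Ranked by the lower of their 2 libraries after the values were seen, the 5 that followed VSTM2B and PDGFRA were as follows. ADGRA1, an adhesion receptor gene, held 233 and 124 reads. PEG10 and SGCE, an imprinted pair that shares a promoter, held 164 and 124. SSTR2, a somatostatin receptor gene, held 273 and 122, the pseudokinase gene TRIB2 217 and 121, and TUBGCP6, a component of the gamma-tubulin ring complex, 184 and 121. A missing peak is no measured 0, so no ratio is given.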
